A study of Rattus norvegicus with 6 samples.

Results

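The genes described here encode 39 nucleolar factors of ribosome assembly, chosen by name with earlier results of these data known and sorted by role. They comprise 18 factors of the small subunit, 11 factors of the large subunit, 6 core proteins of small nucleolar ribonucleoproteins (snoRNPs) and 4 nucleolar chaperones and regulators. Each gene was followed through the probe of highest mean signal whose transcript accession maps to it. Of the 39 genes, 28 had a named probe, out of 13817 protein-coding genes named on the array, and 27 were bright enough to test. Utp6, Utp20, Nop14, Rrp12, Wdr75, Bysl, Tsr1, Nop2, Rrp1b, Dkc1 and Nhp2 had no named probe and are not described further.

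Ribosome assembly starts in the nucleolus, where RNA polymerase I transcribes a long precursor rRNA and assembly factors bind it while it is being made. Box C/D and box H/ACA snoRNPs guide methylation and pseudouridylation of the rRNA, and the small-subunit processome and the pre-large-subunit particles fold and cut it. The pathway consumes much of the energy of a growing cell, and its genes are known targets of the growth regulator MYC.

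H9c2 is a myoblast line derived from embryonic rat heart. In the H/R (hypoxia/reoxygenation) group, 3 samples of H9c2 cells kept without serum and glucose were held for 1 h in 1% O2, 5% CO2 and 94% N2 and then returned to normoxia for 3 h; the control group had 3 samples of H9c2 cells in normoxia. Both groups were grown beforehand with 4500 mg/L glucose, 10% serum, HEPES and penicillin with streptomycin. The labels do not say whether the controls were also deprived of serum and glucose, so low oxygen with its return and the change of medium cannot be told apart.

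The 6 scanner files came from 1 slide, each array at a position of its own, with 58.4% to 71.1% of spots well above background per file and 0 saturated. Replicates 2 and 3 of each group lay at the same slide position and matched spot by spot far more closely than any other pair, with a median absolute difference of 0.0151 to 0.0163 log2 units against 0.102 to 0.124 for the other pairs of a group. They were therefore averaged as 1 array, which leaves 2 arrays in each group. This departs from the series text, which counts 3 independent experiments in each group without saying whether these were separate cultures, and p-values measure the spread between these arrays. Levels are log2 signal relative to the 75th percentile of the same array, differences are H/R minus control, and the test was limma with Benjamini-Hochberg adjustment over 15899 probes at a threshold of 0.05. Cells were measured in bulk, so fewer cells carrying a transcript and less of that RNA per cell cannot be told apart. Of the defining muscle markers, 11 of 12 skeletal and 10 of 10 cardiac genes were above background in all 6 files. The leukocyte markers Ptprc, Itgam and Adgre1 and the endothelial markers Pecam1 and Cdh5 were not above background in any file. Other genes of these lists, the leukocyte markers Aif1, Cd68 and Csf1r and the endothelial marker Tek, were above background in all 6. So were 6 of 6 fibroblast and matrix markers on the array.

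Most of the measured assembly factors had lower signal after H/R, and none passed the test upwards. Of the 27 tested, 10 fell (37.0%) and 0 rose. Of all 9997 tested genes, 9.62% fell and 16.2% rose; over all probes the shares were 8.87% (1411 probes) and 14.8% (2358 probes). That balance depended on the scaling: with each array scaled to its median, 2253 probes fell and 1566 rose, and 14 of the 27 members and 30 of the 101 other tested genes of the pathway fell and 0 of either rose. At an unadjusted p under 0.05 the members counted 17 lower and 0 higher, against 1657 lower and 2530 higher among all 9997 tested genes. The median difference was -0.34 over the members and 0.07 over all tested genes, and 24 of 27 members (88.9%) had a negative difference against 42.8% of all genes.

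Summed levels of the cardiac, fibroblast and endothelial markers separated the groups as well, while those of the skeletal and leukocyte markers overlapped. These sums were taken over linear signal relative to the 75th percentile of the array, while levels of single genes are log2. The cardiac sum was 9.55 to 10.3 in the H/R files and 5.78 to 5.97 in the control files (2 of 10 genes rose, 1 fell). Tnnt2, which rose, was by far the brightest cardiac probe (mean log2 level 2.76 in H/R and 1.63 in control). Nppb was the cardiac gene that fell, to 37.8% of control (adjusted p = 0.00333). The skeletal list summed to 20.6 to 24.1 in the H/R files and 23.5 to 25.5 in the control files (4 of 12 rose, 2 fell). Myod1 fell to 36% of control and Cav3 to 70.7% (adjusted p = 0.00814 and 0.0236). Of the skeletal genes that rose, Chrna1 was well above background in 3 H/R files and 0 control files, so it was tested only through the H/R group. The fibroblast list summed to 64.8 to 66.2 in the H/R files and 51.6 to 62.1 in the control files (2 of 6 rose). Its sum came almost wholly from Col3a1 and Col1a2 (mean log2 levels 5.1 and 4.92 in H/R), which did not pass (adjusted p = 0.346 and 0.239). The 2 that rose, Lum and Dcn, were dim (mean log2 levels -1.22 and -2.46 in H/R). The leukocyte list summed to 0.33 to 0.382 in the H/R files and 0.292 to 0.454 in the control files, and the endothelial list to 0.0963 to 0.116 in the H/R files and 0.0506 to 0.0549 in the control files. Tek, the only endothelial gene tested, rose (difference 1.11, adjusted p = 0.00848). The sums follow a few bright probes and do not show whole lists moving together. The part of these summed differences in the falls of the assembly factors was not tested.

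In 23 of the 27 genes (85.2%), every H/R file lay below every control file, a pattern that 27.9% of all tested genes showed. The opposite pattern held for 0 members and for 38.2% of all tested genes. Between each H/R array and each control array, the median difference over the members was -0.303, -0.296, -0.349 and -0.369.

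The count of calls rests on having both arrays of a group. Whichever array was left out, most of the 10 calls were lost, and fewer probes of the whole array passed as well. Each of these fits keeps 1 array in a group, which is assumed to vary like the other group, so only differences are given. The members' median difference was -0.347 without H/R replicate 1 and -0.32 without the averaged H/R replicates 2 and 3. Without control replicate 1 it was -0.361, and without the averaged control replicates 2 and 3 it was -0.329. With normexp background correction 0 members passed, and 0 of all 15899 probes did. At an unadjusted p under 0.05 that fit gave 12 members lower, against 2044 probes in either direction. With no filter on dim probes only Rrs1 passed, and over all 24578 probes 162 fell and 432 rose. All 10 called genes kept a negative difference in each of these fits, although that of Utp18 shrank to -0.173 with normexp. Replicates 1 and 2 of both groups were scanned together and replicate 3 of both in another scan. Within the first scan the same 10 genes fell, and within the second, which has 1 array per group and so no test, 27 of 27 members were lower after H/R. Replicates 2 and 3 were taken as 1 array, so both scans reuse arrays of the main fit and are no independent check.

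**Figure D1:**
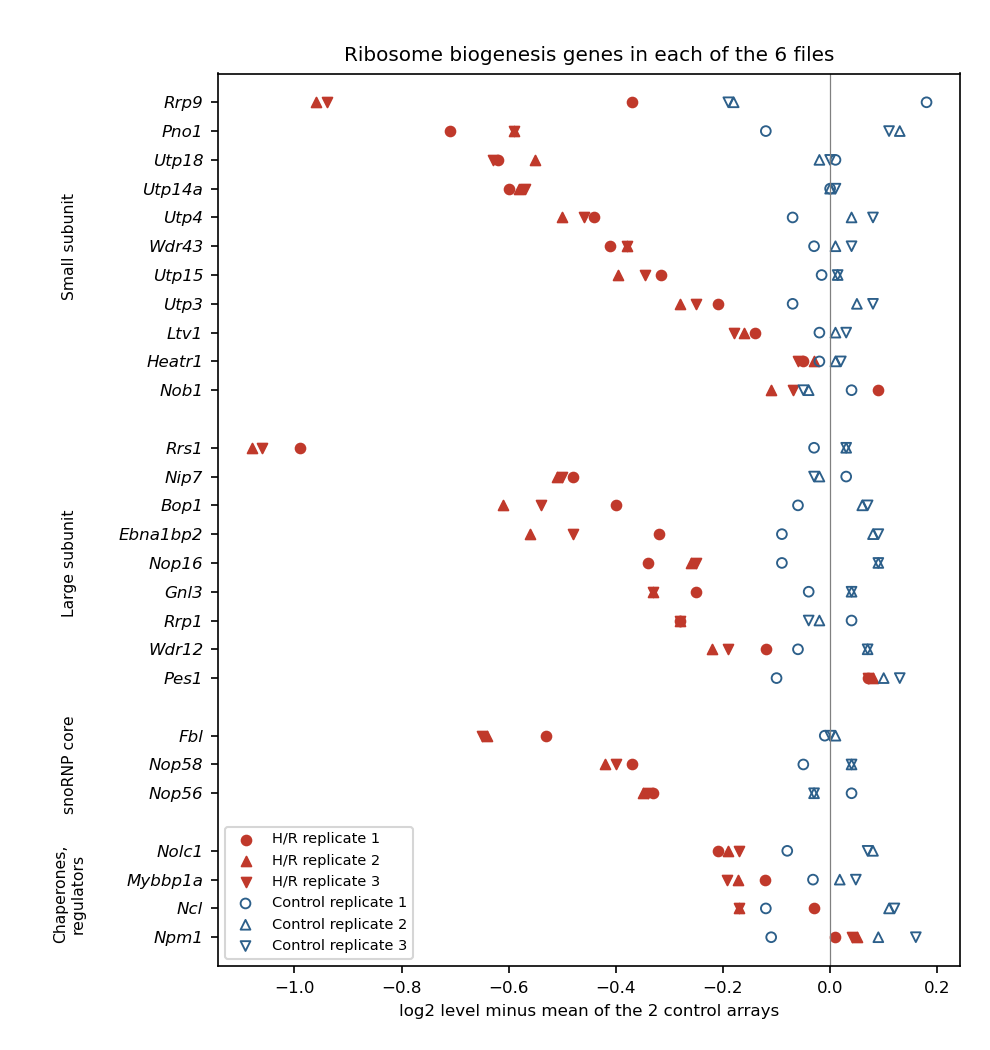
Level of each of the 27 tested assembly factors in each of the 6 scanner files, drawn as the log2 level minus the mean of the 2 control arrays (horizontal axis); filled red symbols are H/R and open blue symbols control, with 1 symbol shape per replicate. In 23 genes all 3 H/R points lie below all 3 control points.

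Among the large-subunit factors, 9 of 11 genes were tested, and the median difference was -0.30. Of the 9, 3 fell (33.3%, against 9.62% of all tested genes) and 0 rose (against 16.2%). The largest difference of all members was that of Rrs1, which in yeast brings the ribonucleoprotein of the smallest large-subunit rRNA into the precursor particle. Rrs1 had levels of 1.97, 1.88 and 1.90 in the H/R files, against 2.93, 2.99 and 2.99 in the control files. The files of each group lay close together and far from those of the other, and the signal after H/R was 48.9% of control (difference -1.03 ± 0.10 SE, 95% confidence interval -1.28 to -0.785, adjusted p = 0.00493).

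Nip7, a factor of precursor rRNA processing, had 2.19, 2.16 and 2.17 in the H/R files and 2.70, 2.65 and 2.64 in the control files. Its H/R values lay close together and well below the controls, at 71.1% of the control signal (-0.49 ± 0.09, adjusted p = 0.0232).

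Bop1, Pes1 and Wdr12 form the PeBoW complex, which processes the precursor of the large-subunit rRNA. Bop1 had 2.66, 2.45 and 2.52 in the H/R files and 3.00, 3.12 and 3.13 in the control files, with H/R replicate 1 the closest to the controls, and fell to 71.2% of control (-0.49 ± 0.11, adjusted p = 0.0379). Pes1 had 2.53, 2.54 and 2.53 in the H/R files and 2.36, 2.56 and 2.59 in the control files. The Pes1 groups overlapped, control replicate 1 being lowest of all, and the difference of 0.07 had a 95% confidence interval of -0.228 to 0.361 (adjusted p = 0.692). Wdr12 differed by -0.17 ± 0.10 (adjusted p = 0.281). Whether the differences of the 3 subunits differ from each other was not tested.

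Ebna1bp2, whose yeast relative acts in processing of the large-subunit rRNA, was the brightest probe of this role. It had 3.77, 3.53 and 3.61 in the H/R files and 4.0, 4.17 and 4.18 in the control files. The groups did not overlap, but the difference of -0.42 ± 0.12 missed the threshold (adjusted p = 0.0686). Nop16, Gnl3 (nucleostemin, a nucleolar GTPase) and Rrp1 had differences of -0.30, -0.29 and -0.28, with adjusted p between 0.0852 and 0.116.

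Among the small-subunit factors, 11 of 18 genes were tested, and the median difference was -0.39. Of the 11, 5 fell (45.5%, against 9.62% of all tested genes) and 0 rose (against 16.2%). Pno1, the partner of the Nob1 endonuclease on the precursor of the small subunit, had 1.68, 1.80 and 1.80 in the H/R files and 2.27, 2.52 and 2.50 in the control files. The lowest control value stood clear of the highest H/R value, and the signal was 63.8% of control (-0.65 ± 0.12, adjusted p = 0.025). Nob1 itself, which makes the final cut of the small-subunit rRNA, had 2.88, 2.68 and 2.72 in the H/R files and 2.83, 2.75 and 2.74 in the control files. Its groups overlapped fully, and the 95% confidence interval of its difference ran from -0.286 to 0.286 (adjusted p = 1).

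Utp18, Utp14a, Utp4 and Wdr43 belong to the small-subunit processome, the large particle that forms on the nascent rRNA. Utp18 had -2.68, -2.61 and -2.69 in the H/R files and -2.05, -2.08 and -2.06 in the control files, a fall to 65.6% of control (-0.61 ± 0.09, adjusted p = 0.0137). With normexp background correction this dim probe's difference was only -0.173 (adjusted p = 0.753). Utp14a, which in yeast activates the helicase that dismantles the processome, had 0.91, 0.93 and 0.94 in the H/R files and 1.51, 1.51 and 1.52 in the control files, a fall to 66.5% (-0.59 ± 0.09, adjusted p = 0.0147). In both genes the files of a group lay much closer to each other than the groups did.

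Utp4 had 1.82, 1.76 and 1.80 in the H/R files and 2.19, 2.30 and 2.34 in the control files, and fell to 72.8% of control (-0.46 ± 0.10, adjusted p = 0.0334). Wdr43 had 0.75, 0.78 and 0.78 in the H/R files and 1.13, 1.17 and 1.20 in the control files, a fall to 76.3% (-0.39 ± 0.09, adjusted p = 0.0402). Both encode subunits of the module that binds the nascent rRNA first. Utp15 and Heatr1 of the same module differed by -0.35 ± 0.09 (adjusted p = 0.0548) and by -0.05 (adjusted p = 0.735).

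Rrp9, a protein of the snoRNP that base-pairs with the precursor rRNA in the processome, had the second largest member difference and did not pass. It had 2.28, 1.69 and 1.71 in the H/R files and 2.83, 2.47 and 2.46 in the control files. Replicate 1 was the highest in each group, and the difference of -0.66 ± 0.24 ranged from -1.13 to -0.182 between single arrays (adjusted p = 0.111). Rrp9 was named after its values were seen. Utp3, the brightest small-subunit probe and also a processome protein, had 3.03, 2.96 and 2.99 in the H/R files and 3.17, 3.29 and 3.32 in the control files. Its groups did not overlap, but the difference of -0.23 ± 0.10 did not pass (adjusted p = 0.158). Ltv1, a late factor of the small subunit, differed by -0.16 (adjusted p = 0.255).

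**Figure D2:**
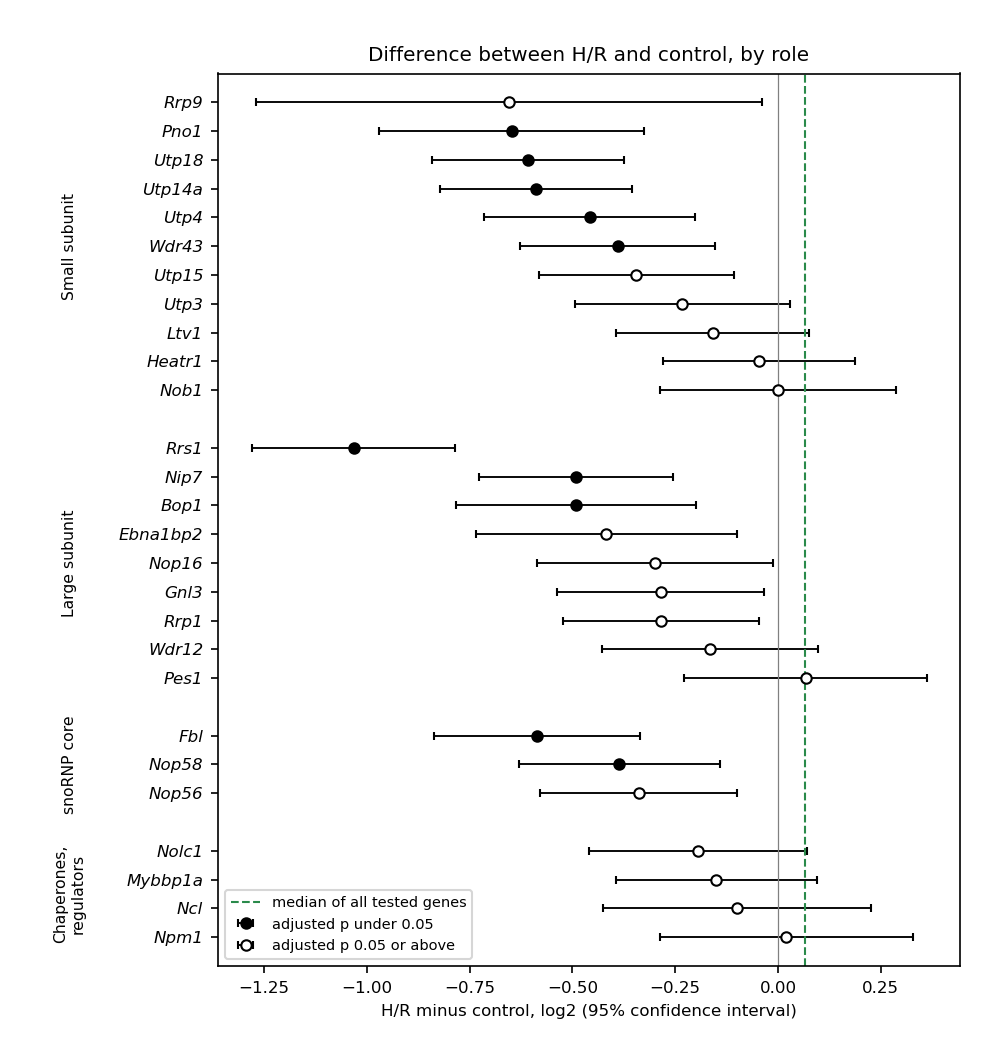
H/R minus control difference of each tested gene by role, in log2 units, with bars for its 95% confidence interval from limma; filled points passed the test, and the dashed line is the median of all tested genes. Rrs1 lies lowest at -1.03, and Npm1, Nob1 and Pes1 lie at or just above 0.

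The medians of small- and large-subunit factors lay close together. The small-subunit median minus the large-subunit median was -0.0915. The placing of Nip7, Rrp12 and Rrp1b in a role was ambiguous, and with them left out of both roles the value was -0.0983. Between single arrays, the small-subunit medians were -0.376, -0.334, -0.356 and -0.401 and the large-subunit medians -0.252, -0.405, -0.314 and -0.369. The order turned in the second of these pairs, H/R array 1 against control array 2, so the data set neither role below the other on every array.

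Of the 6 snoRNP core genes, 3 were tested, and 2 fell (9.62% of all tested genes did). Fbl (fibrillarin), the ribose methyltransferase of the box C/D particle, had 3.54, 3.43 and 3.42 in the H/R files and 4.06, 4.08 and 4.07 in the control files, a fall to 66.6% of control (-0.59 ± 0.10, adjusted p = 0.0175). Nop58, a scaffold of the same particle and the brightest probe of this role, had 4.05, 4.0 and 4.02 in the H/R files and 4.37, 4.46 and 4.46 in the control files, a fall to 76.5% (-0.39 ± 0.09, adjusted p = 0.0445). In both genes every H/R file was lower than every control file. Its partner Nop56 had 1.62, 1.60 and 1.61 in the H/R files and 1.99, 1.92 and 1.92 in the control files, and its difference of -0.34 ± 0.09 missed the threshold (adjusted p = 0.0581). Gar1, a box H/ACA protein, was too dim to test: its probe was well above background in 2 of 3 H/R files and 1 of 3 control files.

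The 4 chaperones and regulators were all tested, and 0 passed in either direction (9.62% of all tested genes fell and 16.2% rose). Npm1 (nucleophosmin), the most abundant signal of this role, had 4.94, 4.98 and 4.97 in the H/R files and 4.82, 5.02 and 5.09 in the control files. The H/R values fell inside the control range, and the difference of 0.02 had a 95% confidence interval of -0.287 to 0.327 (adjusted p = 0.913). Ncl (nucleolin), which acts in rRNA transcription and processing, had 4.66, 4.52 and 4.52 in the H/R files and 4.57, 4.80 and 4.81 in the control files. These groups overlapped through replicate 1, and the difference of -0.10 had an interval of -0.425 to 0.227 (adjusted p = 0.591). Nolc1, a chaperone of snoRNPs, and Mybbp1a, a nucleolar MYB-binding protein, differed by -0.19 (adjusted p = 0.222) and -0.15 (adjusted p = 0.294). Their role's median was -0.12. These intervals are wide enough to hold falls of the size seen in Wdr43 for Ncl but not for Npm1.

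Of the genes of the pathway outside the 39 members, 147 were listed in 5 coding groups, with earlier results known, and 101 were tested. Of these, 21 fell (20.8%, against 9.62% of all tested genes) and 0 rose (16.2% of all tested genes did). At an unadjusted p under 0.05 the counts were 34 lower and 3 higher, against 1657 and 2530 among all 9997 tested genes. Their median difference was -0.16, 76.2% were negative, and in 55.4% every H/R file lay below every control file, against 27.9% of all tested genes. As with the members, most of these calls were lost when an array was left out, and fewer probes of the whole array passed as well.

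Other large-subunit factors (33 tested, median -0.20) gave 5 of these falls (15.2%, against 9.62% of all tested genes). Rsl24d1, whose yeast relative joins the precursor of the large subunit, had -2.73, -3.33 and -3.33 in the H/R files and -0.94, -1.13 and -1.13 in the control files. The groups were far apart, with 25.1% of the control signal left (-2.0 ± 0.22, adjusted p = 0.00696). The putative rRNA methyltransferase Ftsj3 and the assembly factor Urb2 fell by 0.62 and 0.56 on the log2 scale (adjusted p = 0.0153 and 0.0173). Other small-subunit factors (28 tested, median -0.21) gave 5 falls as well (17.9%). Among them were Bud23, an rRNA methyltransferase, by 0.81, the processome protein Pdcd11 by 0.62 and Imp3 by 0.50 (adjusted p = 0.0196, 0.0150 and 0.0276).

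RNA polymerase I and its factors (16 tested, median -0.16) gave 2 falls, a share of 12.5% near the 9.62% of all tested genes. They were the polymerase I subunit Polr1g by 0.68 and Polr2h, a subunit shared by the nuclear RNA polymerases, by 0.44 (adjusted p = 0.0107 and 0.0425). In Taf1a and Polr2e, which did not pass and were named after their values were seen, every H/R file lay above every control file (differences 0.33 and 0.19, adjusted p = 0.0724 and 0.235). SnoRNP assembly and rRNA modification genes (12 tested, median -0.09) gave 4 falls (33.3%, against 9.62% of all tested genes) and 0 rises. In 3 of the 12 every H/R file lay above every control file, a pattern that 38.2% of all tested genes showed. Among the falls were Nop10, a box H/ACA core protein, by 0.56, Snu13, a box C/D core protein, by 0.50, and the methyltransferase partner Trmt112 by 0.48 (adjusted p = 0.0255, 0.0399 and 0.0370).

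The RNA exosome and rRNA exonucleases gave 5 falls of 12 tested (41.7%, against 9.62% of all tested genes), although the group's median was -0.02. Only 6 of the 12 had a negative difference, and 2 were higher at an unadjusted p under 0.05. In 3 every H/R file lay above every control file, and in 5 below, against 38.2% and 27.9% of all tested genes. Rexo4, a nucleolar exonuclease homologue, had -2.83, -1.85 and -1.85 in the H/R files and 0.33, 0.01 and -0.01 in the control files. Its groups were separate, although the H/R arrays were also far apart, and the mean was 17.6% of control (-2.50 ± 0.34, adjusted p = 0.0114). The exosome subunit Exosc2 and the exoribonuclease Eri1 fell by 0.73 and 0.57 (adjusted p = 0.0134 and 0.0170).

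**Figure D3:**
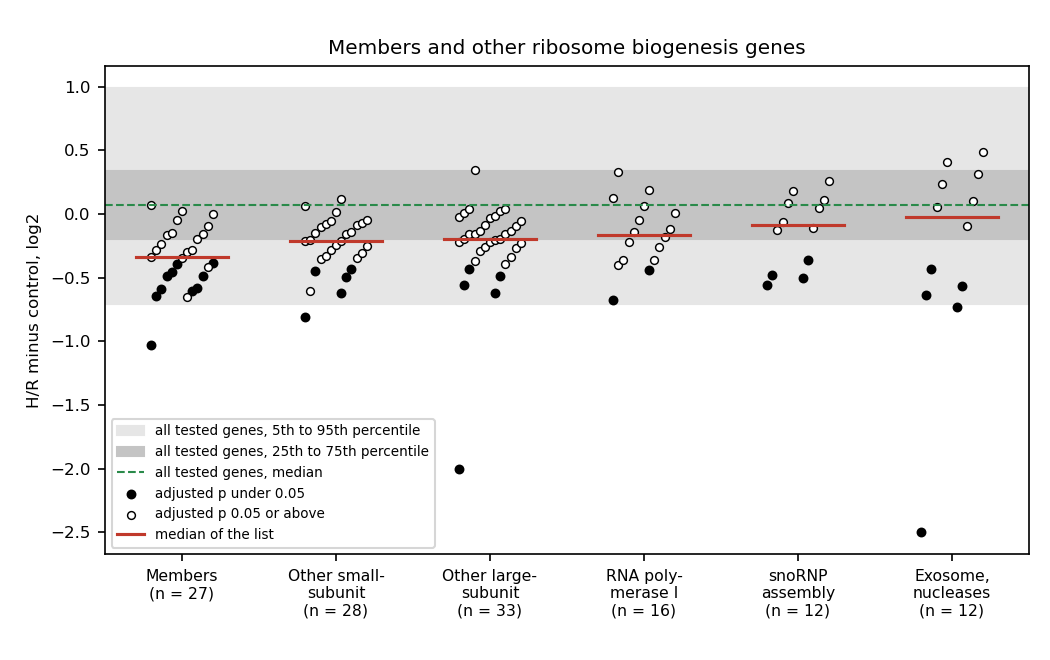
H/R minus control difference (log2, vertical axis) of each tested gene, for the members and the 5 further groups; filled points passed the test, red lines are medians, and grey bands hold the middle of all tested genes by percentile. The medians run from -0.34 in the members to -0.02 in the exosome group, against 0.07 for all tested genes.

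The promoters of these genes were set beside each other because members of every role but the chaperones fell. The window ran from 250 bases before to 50 bases after the start of each gene in RefSeq's rat assembly GRCr8, and 36 of the 39 members had one. Rrs1, Bop1 and Wdr43, which all fell, were not matched, so comparisons by motif cover 7 of the 10 called genes. The E-box and the ETS site were the motifs most over the share in all tested genes. CACGTG, the E-box bound by MYC with MAX and by USF proteins, is its own reverse complement. CCGGAAG, searched on both strands (CTTCCGG on the other), is an ETS-family site; matches on opposite strands can overlap and are then counted on each strand.

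The promoters shown belong to called genes with the smallest adjusted p of their role that had a window, with E-box and ETS matches in capitals, 5′ to 3′ on the strand of the gene. Nip7 lies at chr19:51872056-51872355 on the plus strand, Utp18 at chr10:79335708-79336007 on the minus strand, Utp14a at chrX:132316990-132317289 on the plus strand, Fbl at chr1:92597157-92597456 on the plus strand and Nop58 at chr9:68614824-68615123 on the plus strand.
Nip7: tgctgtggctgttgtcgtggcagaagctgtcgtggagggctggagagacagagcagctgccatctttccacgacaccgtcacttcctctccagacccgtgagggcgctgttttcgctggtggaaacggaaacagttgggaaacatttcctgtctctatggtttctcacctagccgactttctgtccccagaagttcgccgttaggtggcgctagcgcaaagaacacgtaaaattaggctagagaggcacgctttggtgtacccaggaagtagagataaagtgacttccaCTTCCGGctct
Utp18: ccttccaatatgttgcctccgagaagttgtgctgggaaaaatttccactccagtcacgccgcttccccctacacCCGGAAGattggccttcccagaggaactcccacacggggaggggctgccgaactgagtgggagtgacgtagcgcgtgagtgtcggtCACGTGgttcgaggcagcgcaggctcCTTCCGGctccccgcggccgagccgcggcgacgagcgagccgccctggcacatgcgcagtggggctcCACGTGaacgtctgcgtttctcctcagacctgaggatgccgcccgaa
Utp14a: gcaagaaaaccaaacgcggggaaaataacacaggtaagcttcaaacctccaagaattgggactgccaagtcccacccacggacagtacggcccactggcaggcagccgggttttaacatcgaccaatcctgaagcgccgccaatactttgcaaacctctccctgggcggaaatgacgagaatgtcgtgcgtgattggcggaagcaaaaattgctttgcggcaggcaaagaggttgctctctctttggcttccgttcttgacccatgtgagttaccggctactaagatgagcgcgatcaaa
Fbl: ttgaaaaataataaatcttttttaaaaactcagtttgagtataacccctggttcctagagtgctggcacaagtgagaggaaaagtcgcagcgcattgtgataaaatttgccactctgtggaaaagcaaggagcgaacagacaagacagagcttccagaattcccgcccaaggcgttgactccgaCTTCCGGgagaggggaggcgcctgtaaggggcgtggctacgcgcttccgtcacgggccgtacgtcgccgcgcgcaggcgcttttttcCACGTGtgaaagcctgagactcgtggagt
Nop58: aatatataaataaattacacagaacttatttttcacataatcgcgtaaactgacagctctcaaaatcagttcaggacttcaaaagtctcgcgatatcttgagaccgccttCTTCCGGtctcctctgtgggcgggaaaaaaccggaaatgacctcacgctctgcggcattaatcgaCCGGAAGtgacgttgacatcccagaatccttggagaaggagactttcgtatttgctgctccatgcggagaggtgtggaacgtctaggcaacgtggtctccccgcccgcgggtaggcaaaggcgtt

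Utp18 held 2 matches of each motif, Fbl held 1 of each, Nop58 held 2 ETS matches, Nip7 held 1 ETS match, and Utp14a held 0 of either. Utp14a fell by 0.59, against 0.61 in Utp18 and 0.59 in Fbl on the log2 scale.

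The E-box occurred in 17 of 36 member promoters (47.2%), in 20.9% of the further pathway genes, in 8.79% of tested genes and in 6.42% of the 33469 promoters of the table. It was as frequent in small-subunit (9 of 17) as in large-subunit factors (5 of 9). The ETS site occurred in 16 members (44.4%), 48.8% of the further genes, 16.6% of tested genes and 8.75% of all promoters, and 9 members held both. The GC box GGGCGG occurred in 69.4% of members and 56.8% of tested genes, CCAAT in 22.2% and 38.5%, and TATAAA in 5.56% and 9.11%. The YY1 site GCCATNTTG occurred in 5.56% and 4.67%, each motif being searched on both strands.

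Of the 19 E-box matches in members, 15 had their centre within 100 bases of the start, with a median of -13. Genes that fell were found on both sides: 4 of 10 tested members with one fell (Fbl, Pno1, Utp18 and Utp4; median -0.35), and 3 of 14 without (median -0.27). The ETS site was in 5 of the 7 called members with a window (71.4%) and in 4 of the 17 tested members that were not called (23.5%), a difference given without a test. Among all tested genes outside the members, 76 of 740 with an E-box fell (10.3%), and 697 of 7473 without (9.33%). For the ETS site the counts were 128 of 1387 with it (9.23%) and 645 of 6826 without (9.45%). The letters of a motif are a description of the window and say nothing of which factor is bound in these cells.

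**Figure D4:**
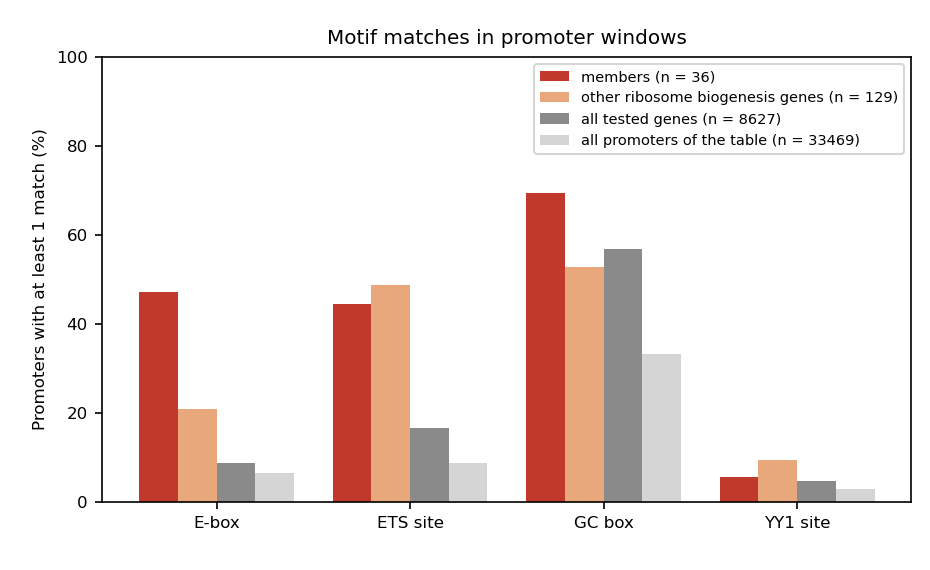
Bars show the share of promoters with at least 1 match to the E-box, ETS site, GC box and YY1 site, in percent, for the members, the further pathway genes, all tested genes and all RefSeq promoters. The members stand at 47.2% for the E-box against 8.79% of tested genes.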

How the data were processed

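Total RNA of rat H9c2 cells, depleted of rRNA and labelled with Cy3, was hybridised to a 1-colour lncRNA and mRNA array, per the labels' protocols. A sentence in those protocols names mouse cortex, against the cell line given everywhere else. Spot intensity was deposited by the authors as Agilent Feature Extraction 11.0.1.1 output, per the submitters' processing notes and the file headers, background-subtracted within each array. The deposited flags, other values coded 0 or 1 for spots above background or outlying, served as filters. The deposited table of log2 values, with its method of normalization not given in the sources used here, matched the scanner values (r of 0.9998 to 0.9999 per array) with column medians of 9.18 to 9.19, and was used as an alternative.

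Spots of a probe were averaged, and each array's 75th percentile over probes was subtracted from log2 intensity. Replicates 2 and 3 of a group were averaged, a probe was tested when well above background in all files of a group, and 15899 of 24578 probes were fitted with limma 3.58.1 in R 4.3.3. Genes were named through RefSeq accessions. The number of arrays limits the precision. The fit was tested on simulated data. Members, lists and roles were chosen with earlier results of these data known. Full values are given for members that passed and for the brightest of each role. They are also given for Pes1, Nob1, Nop56, Ncl and Rrp9, which met neither condition. Up to 3 called genes are named per further group. The alternatives covered scaling, background correction, filters, the replicate and scan blocks, 6 separate files and leaving out replicates. Normexp, planned on the mean spot signal, was run on the median spot signal, and this and the percentile over spots were chosen after seeing the data.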

Additional observations from a re-analysis of the deposited data

How the results depend on the processing

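All 10 called members kept a negative difference in each of the 23 alternatives (Utp18 down to -0.173 with normexp), the members' median minus that of all probes ran from -0.738 to -0.346 (-0.407 as reported), and 24 to 27 members were negative, but the number passing limma's test depended on the setting. Against 10 members and 21 further genes lower as reported, 6 files taken as separate samples gave 22 and 48. With a replicate block they gave 20 and 52, and with the scan as a block 20 and 44. These fits also called 4, 6 and 3 further genes higher against 0. Over all probes they called 3459, 3530 and 3055 lower and 4850, 4896 and 4368 higher, against 1411 and 2358 as reported. Normexp background correction gave 0 and 0 (12 members and 20 further genes at an unadjusted p under 0.05), with 0 of all 15899 probes passing. No filter on dim probes gave 1 and 0 (13 and 25 at an unadjusted p under 0.05), with 162 lower and 432 higher over 24578 probes. An intensity trend called 1 further gene higher. Leaving out both files of H/R array 2 gave 1 and 2, and both files of control array 2 gave 3 and 9; leaving out 1 replicate gave 1 to 10 and 2 to 21. The upper values of these ranges, 10 and 21, came from leaving out replicate 2 or 3, where the other file of the averaged array stayed. Leaving out replicate 1 or both files of array 2 left 1 array in that group, and fewer probes of the whole array passed as well. Counts from those fits therefore cannot be read as a change particular to the members or further genes. Same-numbered arrays share only a number (2 pairs, deviations correlated at 0.153), and the replicate block on the 4 arrays gave 8 members. The cause of these changes was not tested, except that leaving out an array leaves fewer samples.

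Median scaling moved the median of all probes from 0.07 to -0.06 and normexp to 0.33. Median scaling gave medians of -0.466 for the members, -0.518 for small-subunit and -0.426 for large-subunit factors. The large-subunit median was -0.404 with normexp, -0.367 in the second scan and -0.39 to -0.296 without single replicates. Small- minus large-subunit was -0.0522 in the second scan, -0.0008 with normexp, -0.0435 and -0.0468 without both files of H/R or control array 2, and -0.102 to -0.026 without single replicates.

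Only members near 0 changed sign, none of them called. Nob1 was at -0.015 in the 3 fits of 6 files, -0.0117 and -0.0217 within the first and second scan, -0.128 with median scaling, -0.0481 with the percentile over spots, -0.107 with normexp, -0.045 without both files of control array 2 and -0.0902 to 0.0451 without single replicates. Npm1 was at -0.0131 in the fits of 6 files, -0.121 in the second scan, -0.107 with median scaling, -0.0278 with the percentile over spots, -0.0284 with quantile normalization, -0.0971 with normexp, -0.0319 in the deposited table and -0.0991 to 0.0396 without single replicates. Pes1 was at -0.0647 in the second scan, -0.0608 with median scaling, -0.0241 with normexp and -0.0426 to 0.0757 without single replicates. Heatr1, a dim probe, was at 0.907 with normexp, and Ncl at 0.0189 without both files of control array 2.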

Other observations

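The non-coding genes that host snoRNAs in their introns were set apart from the coding genes. Of the 17 listed, Gas5 was the only one with a named probe, and it differed by 0.00346 log2 units.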
